A study of Mus musculus with 6 samples.

Results

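The genes described here were the protein-coding mouse genes named Psma to Psmg with a number, which encode subunits of the proteasome and the factors that assemble it. There were 48 of them among the 55450 genes of the count table, and 43 of these lay outside the 5 immune subunits. They were chosen on measured values: in the comparison of mutant with control libraries, every called gene of this name was called in the same direction, higher. Their fold changes and calls, with the p-values behind them, are therefore given as a description and support nothing further. No test of the set was run. Position in the genome and promoter letters did not enter the choice. Levels between subunits and the spread between libraries of one group were not named in it, but a call depends on both.

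The libraries held polyadenylated RNA of endothelial cells isolated from the brains of mice aged 7 days after birth. Cells were released from minced brain with collagenase, separated on a Percoll gradient and held on magnetic beads against CD31, a surface protein of endothelial cells that is also found on some blood cells. The 3 control libraries came from Cdh5(PAC)-CreERT2; Rbpjflox/WT mice and the 3 mutant libraries from Cdh5(PAC)-CreERT2; Rbpjflox/flox mice, on a mixed FVB/N and C57BL/6 background with both sexes. Cdh5(PAC)-CreERT2 is a tamoxifen-activated Cre recombinase under the endothelial Cdh5 promoter, and Rbpj encodes the DNA-binding partner of the Notch receptors' intracellular domains. All mice, controls included, carried this Cre and at least one floxed Rbpj allele, and all were given tamoxifen into the stomach, 100 µg on each of days 1 and 2 after birth. The design thus sets deletion of both Rbpj alleles in Cre-active endothelial cells against deletion of one. Cells were pooled within a cohort: the design text gives 13 to 15 animals from more than 3 litters in each, the extraction protocol more than 20, and both name triplicates. Nothing says that the triplicates came from separate pools, so p-values measure spread among the 6 libraries alone, and that spread may be technical.

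The proteasome is the barrel-shaped protease that degrades proteins tagged with ubiquitin. Its 20S core stacks rings of alpha subunits (Psma genes) around rings of beta subunits (Psmb genes), of which Psmb5, Psmb6 and Psmb7 encode the ones that cut peptide bonds. The 19S particle caps the core: its base holds a ring of ATPases (Psmc genes) that unfold substrates and feed them into the barrel, and its lid holds the deubiquitinase Psmd14 in a scaffold of other Psmd subunits. In cells exposed to interferon, Psmb8, Psmb9 and Psmb10 take the place of the 3 standard catalytic subunits, and Psme1 and Psme2 form a cap that promotes the release of peptides for class I antigen presentation. When proteasome activity is short, the transcription factor encoded by Nfe2l1 raises proteasome genes together, through promoter sites known as antioxidant response elements.

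Promoters were examined for the letters of that element, TGACNNNGC, and for the CCAAT box, CCAAT, on both strands. The former begins with the TGAC that AP-1 and CREB sites also hold, and the motifs can share a base where they adjoin. RefSeq promoter windows on build GRCm38.p6, from 250 bases before to 50 bases after a transcript's start, were matched by symbol for 40 of the 48 genes, in 43 windows. The antioxidant response element letters stood in 6 of those 43 windows, or 14%, and in 12.4% of all 32851 windows of that length. CCAAT stood in 14 of them, or 32.6%, and in 37.4% of all windows. The genes with the former were Psmb5, Psmb6, Psmc6, Psmd9, Psmd12 and Psme4. Of the 5 genes called higher that had a window, 1 held each motif: Psmd12 the first and Psmc1 the second. The sequences below show 100 bases each of Psmd12, the called gene with the element, of the catalytic genes Psmb5 and Psmb6, and of the called genes Psmc4 and Psmd8, whose windows hold neither motif, all read 5′ to 3′ on the gene's strand with the element's letters in capitals.
Psmd12, chr11:107479278-107479377, + strand: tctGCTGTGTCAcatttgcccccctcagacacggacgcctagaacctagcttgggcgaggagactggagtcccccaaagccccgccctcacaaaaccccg
Psmb5, chr14:54618026-54618125, - strand: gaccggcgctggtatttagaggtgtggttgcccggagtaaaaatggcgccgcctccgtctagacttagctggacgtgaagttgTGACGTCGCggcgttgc
Psmb6, chr11:70525257-70525356, + strand: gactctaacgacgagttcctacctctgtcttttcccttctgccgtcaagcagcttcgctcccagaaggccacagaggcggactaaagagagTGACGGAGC
Psmc4, chr7:28050123-28050222, - strand: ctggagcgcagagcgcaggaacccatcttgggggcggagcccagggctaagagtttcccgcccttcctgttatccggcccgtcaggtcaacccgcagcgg
Psmd8, chr7:29180704-29180803, - strand: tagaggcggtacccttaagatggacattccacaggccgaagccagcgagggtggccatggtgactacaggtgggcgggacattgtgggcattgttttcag
Counted from the start of transcription, with the base before it as -1, the match lay at -247 to -239 in Psmd12, on the strand opposite to the gene. It lay at -47 to -39 in Psmb5 and at -9 to -1 in Psmb6. These are matches of letters, and binding was not measured.

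Each library held 75744913 to 82092461 estimated counts, from 50226902 to 53986268 reads. Rbpj, the floxed gene, stood at 54.3, 54.3 and 53.8 CPM (estimated counts per 1000000 of the scaled library) in the control libraries and at 47.9, 46.8 and 45.2 CPM in the mutant ones. All 3 mutant libraries lay below all 3 controls (log2 fold change -0.21 ± 0.042 SE, adjusted p = 0.0129, edgeR quasi-likelihood test), and the count takes in all exons of the gene, not the floxed part alone. The 10 endothelial markers, 3 of them called higher and 2 lower, summed to 12151 to 12489 CPM in the controls and 12424 to 13440 CPM in mutant libraries. RNA of other cells was present as well: the 12 microglia and macrophage markers summed to 1721 to 1770 CPM in the controls and 1354 to 1389 CPM in mutant libraries, with 8 of 12 called lower, and 7 erythroid markers to 6974 to 7179 and 4665 to 4961 CPM, with 5 of 7 called lower. None of the markers of either list was at 0 throughout. Of 10 pericyte and smooth muscle markers, 3 were called higher and 5 lower, with contractile Acta2 at -1.32 and Abcc9, a pericyte channel subunit, at 0.52 on the log2 scale, and 6 fibroblast markers summed to 538 to 626 CPM in the controls and 356 to 495 CPM in mutant libraries. The 10 astrocyte and neuron markers summed to 542 to 581 CPM in the controls and 369 to 502 CPM in mutant libraries. Of these, 0 were called higher and 2 lower, and of 8 granulocyte markers 1 was called higher and 0 lower. Of all tested genes 7.56% were called higher and 6.83% lower, or 17.4% and 12.7% of those of at least 50 CPM. In bulk RNA, fewer cells of a type and less RNA per cell cannot be told apart, and the part of these cell types in the values below was not tested.

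Of the 48 genes, 47 passed the filter on low counts. The one left out was Psmb11, the catalytic subunit of the thymus, with 0.0505, 0 and 0 CPM in the controls and 0.073, 0 and 0.054 CPM in mutant libraries. At an adjusted p under 0.05 (edgeR quasi-likelihood test, Benjamini-Hochberg over 19549 genes), 7 of the 47 were called higher in mutant libraries and 0 lower, beside 7.56% of all tested genes called higher and 6.83% called lower. At an unadjusted p under 0.05 there were 15 higher and 2 lower, by DESeq2 11 and 1, and by limma-voom 7 and 0. Of all 19549 tested genes, DESeq2 called 1839 higher and 1655 lower, and limma-voom 1441 and 1276. These are the background for the DESeq2 and limma-voom counts below. The share of all genes at an unadjusted p is not given, so the unadjusted counts here and below have no background beside them. The count of 7 became 4 without control replicate 1 and 3 without mutant replicate 2. It was 4 as well without control replicate 2, with 3 of the 7 and Psmd5. All genes called higher went from 1477 in the main fit to 1100 without control replicate 1. They were 1126 without control replicate 2 and 1110 without mutant replicate 2. Proteasome genes were well expressed, and 34 of them averaged at least 50 CPM. The 7 called genes were 20.6% of those 34, while 17.4% of all genes at that level were called higher and 12.7% lower. Nothing is read from these shares, since the genes were chosen on this comparison. The median log2 fold change was 0.07 over the 47 genes and -0.01 over all tested genes, or 0.08 and 0.02 among those of at least 50 CPM. Of the 47, 39 had a fold change above 0. In 15 every mutant library lay above every control library and in 4 every one lay below, beside 16.8% and 17.3% of all tested genes. The latter shares were not computed for genes of at least 50 CPM alone, so they are not matched by level.

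**Figure D1:**
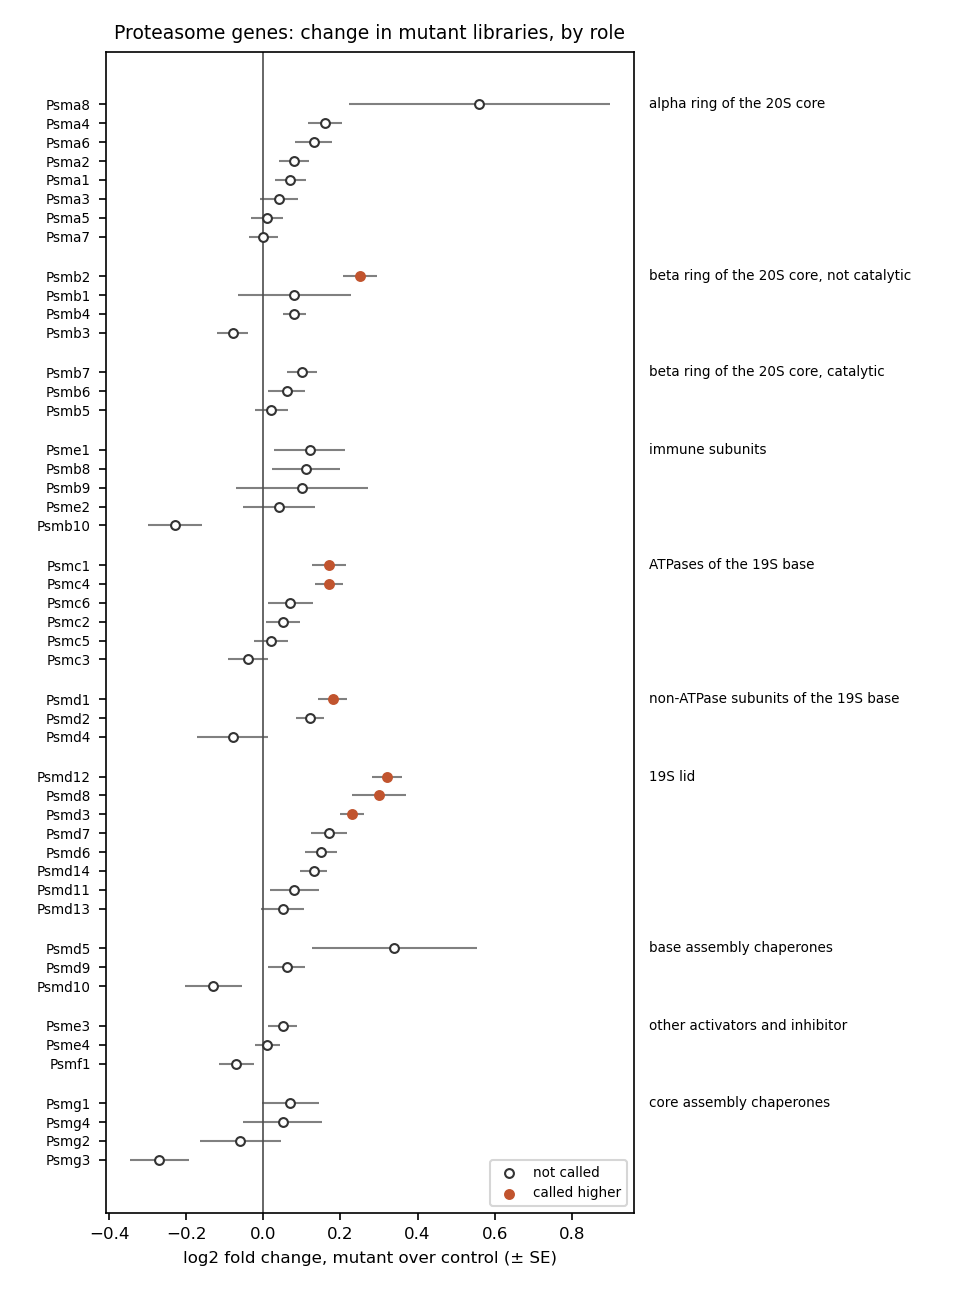
Log2 fold change of each tested proteasome gene, mutant over control libraries (x axis, points with bars of 1 SE), ordered by role. Filled points are the 7 genes called higher, 3 of them in the 19S lid, and none of the open points was called; the 8 lid genes all lie to the right of 0.

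The lid of the 19S particle held 3 of the 7 called genes among its 8, with a median log2 fold change of 0.16 and all 8 above 0. Of all tested genes 7.56% were called higher, or 17.4% of those of at least 50 CPM. These shares are the background for each class below, and nothing particular to a class is read from them. Psmd12, a scaffold subunit of the lid, measured 77.5, 76.2 and 80.8 CPM in the controls and 95.1, 98.2 and 99 CPM in mutant libraries. The lowest mutant library was above the highest control, for a log2 fold change of 0.32 ± 0.039 (SE). Psmd3, another scaffold subunit, measured 185, 185 and 181 CPM against 216, 212 and 221 CPM, a log2 fold change of 0.23 ± 0.032. Within each group its libraries differed by less than the distance between the groups. Psmd8, a further lid subunit, stood at 150, 127 and 127 CPM in control libraries and at 163, 161 and 174 CPM in mutant ones (0.30 ± 0.071). Here control library 1 was nearer to the lowest mutant library than to the other controls, though the groups did not overlap.

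Summed over its 8 genes, the lid took 858.9, 835.2 and 861.5 CPM in control libraries and 953.7, 973.5 and 988.9 CPM in mutant ones. The means were 852 ± 14.5 and 972 ± 17.7 CPM (SD, n = 3 each). The smallest fold change of the lid belonged to Psmd13, at 108, 107 and 123 CPM against 114, 118 and 117 CPM (0.05 ± 0.056), where the groups overlapped. Psmd14, the deubiquitinase that removes ubiquitin chains as a substrate enters, measured 83.8, 83 and 84.2 CPM against 89.9, 94.6 and 90.7 CPM. Every mutant library lay above every control in it, as in 5 of the other 7 lid genes, beside 16.8% of all tested genes. Psmd14 was just outside the threshold, with an adjusted p of 0.0502 in the edgeR quasi-likelihood test, followed by Psma4 at 0.0532 and Psmd6, another lid subunit, at 0.0547. The last 3 inside it were Psmd1 at 0.021, Psmd8 at 0.031 and Psmc1 at 0.034.

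In the base, 2 of the 6 ATPase genes were called, and the class had a median log2 fold change of 0.06. Psmc4 measured 137, 136 and 140 CPM in the controls and 149, 159 and 155 CPM in mutant libraries (0.17 ± 0.036). Psmc1 measured 159, 145 and 158 CPM against 175, 174 and 174 CPM (0.17 ± 0.043). In both the groups stood apart, and in Psmc1 control library 2 was the low one. Psmc3, with the smallest fold change of the ring, stood at 202, 196 and 215 CPM against 211, 192 and 194 CPM (-0.04 ± 0.051), and its highest and its lowest value came from opposite groups. An assembled ring holds the 6 ATPases in equal number, while the log2 fold changes of their transcripts ran from -0.04 to 0.17; protein was not measured.

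Among the base's other subunits, Psmd1, the large scaffold that binds ubiquitin receptors, was called at 215, 208 and 218 CPM against 233, 240 and 251 CPM (0.18 ± 0.038). Psmd2, its partner scaffold, reached 246 ± 9.09 CPM in the controls and 267 ± 2.76 CPM in mutant libraries (SD, n = 3) and was not called. Psmd4, itself a ubiquitin receptor, measured 116, 118 and 93.3 CPM against 107, 98.8 and 103 CPM (-0.08 ± 0.091). All 3 of its mutant values fell inside the control range, which control library 3 stretched downward. Psmd1 overlaps Gm21972 on its own strand, sharing 2.75% of its 100-base stretches with it, so its count may be split whatever the strand setting. On the opposite strand, Psmd1 overlaps Htr2b and Psmd3 overlaps Gm12356. The library kit keeps the strand, per the labels, but the sources used here do not say whether the counting used it. Over the whole 19S particle, 17 genes with 6 called, the sum was 2236, 2197 and 2266 CPM in the controls and 2422, 2427 and 2465 CPM in mutant libraries.

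The 20S core contributed 1 called gene of 14, Psmb2, a beta subunit without catalytic activity. It measured 96.8, 101 and 106 CPM in the controls and 121, 116 and 122 CPM in mutant libraries (0.25 ± 0.044), with no overlap. The core's 14 genes together summed to 1785 ± 70.5 CPM in the controls and 1886 ± 36 CPM in mutant libraries (SD, n = 3), with 1743, 1746 and 1867 CPM in one group and 1883, 1923 and 1851 CPM in the other, so that control library 3 overlapped the mutants. Psmb3, with the smallest fold change among the non-catalytic beta genes, stood at 111, 114 and 119 CPM against 112, 108 and 107 CPM (-0.08 ± 0.040). Psmb1 spread widely in both groups, at 152, 151 and 195 CPM and at 159, 203 and 163 CPM, with 1 high library in each.

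The catalytic genes were not called. Psmb5, the chymotrypsin-like subunit and the main target of proteasome inhibitors used in cancer, measured 62.7, 67.1 and 67.7 CPM against 67.7, 66.3 and 66.2 CPM (0.02 ± 0.043). Psmb6, the caspase-like subunit, measured 131, 134 and 147 CPM against 146, 142 and 141 CPM (0.06 ± 0.049). In both genes the mutant values lay within or at the edge of the control range. Psmb7, the trypsin-like subunit, measured 161, 165 and 175 CPM against 182, 178 and 177 CPM (0.10 ± 0.039), with all 3 mutant libraries above the controls by a margin smaller than the controls' own spread. Of all stretches of 100 bases in Psmb5's transcripts, 22.2% also occurred in other genes, so its count may be split with them.

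**Figure D2:**
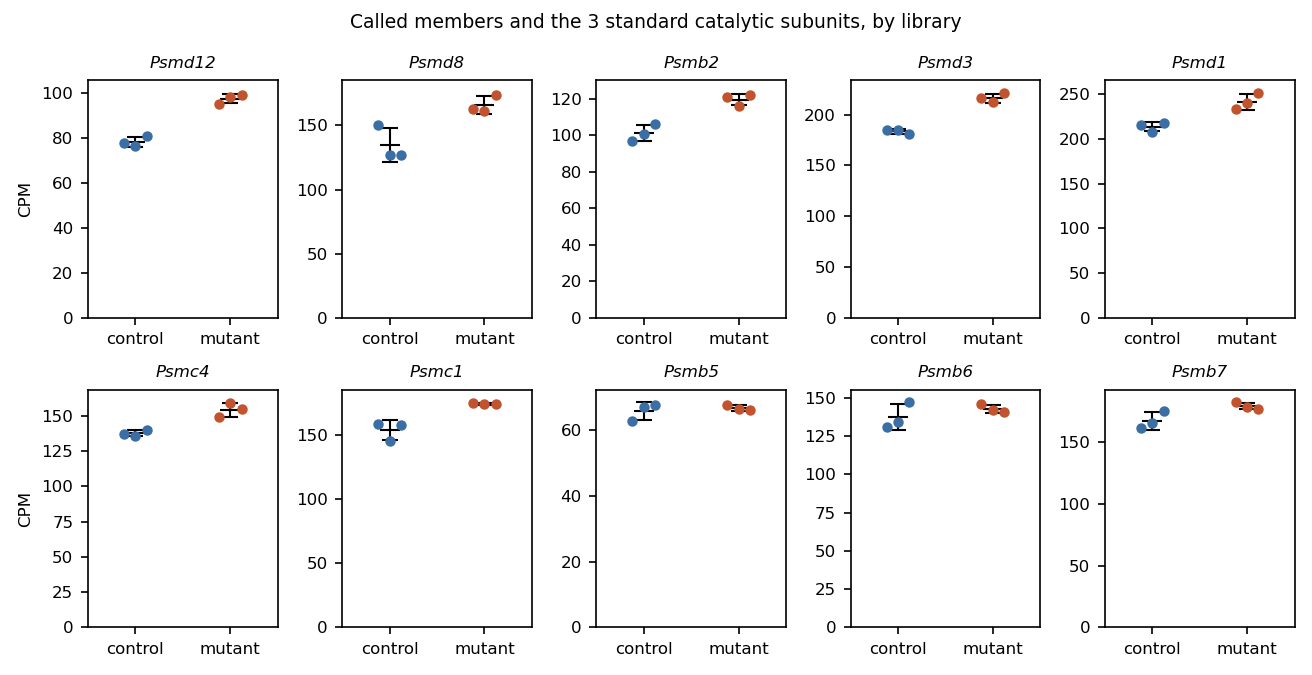
Expression of the 7 called genes and of the catalytic genes Psmb5, Psmb6 and Psmb7 in each library (y axis, CPM from 0), with the group mean and SD as bars. Control and mutant points stand apart for the called genes, and they overlap for Psmb5 and Psmb6.

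None of the 8 alpha ring genes was called, while all 8 fold changes were 0 or above at 2 decimals and their median was 0.08. At an unadjusted p under 0.05, 2 of the 8 were higher in the edgeR quasi-likelihood test, by DESeq2 1 was called and by limma-voom 0. Psma4 was the single one whose groups did not overlap, at 114, 110 and 118 CPM against 123, 134 and 126 CPM (0.16 ± 0.045). Psma7 measured 117, 111 and 118 CPM against 116, 117 and 113 CPM, a log2 fold change of 0.00 ± 0.038. Psma8, the alpha subunit known from testis, gave the largest fold change of all and the least certain: 5.12, 4.87 and 3.27 CPM against 6.73, 9 and 3.86 CPM (0.56 ± 0.338), with overlap.

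The assembly chaperones, which hold unfinished cores and bases and leave the finished particle, gave no called gene among 7. At an unadjusted p under 0.05 they had 0 higher and 1 lower, by DESeq2 0 and 1, and by limma-voom 0 and 0. Psmg3, a chaperone of the alpha ring, was the 1 called lower by DESeq2, at 13.3, 14.5 and 14.1 CPM in the controls and 12.2, 11.4 and 11.1 CPM in mutant libraries (-0.27 ± 0.077). Every mutant value lay below every control. Psmg3 overlaps Gm26938 on its own strand and shares 6.19% of its 100-base stretches with it, so its count may be split. The other end of the core chaperones was Psmg1, with 16 ± 0.732 CPM in the controls and 16.9 ± 0.956 CPM in mutant libraries (SD, n = 3; 0.07 ± 0.074). For the base chaperones, Psmd10, also known as gankyrin, measured 22, 21.8 and 22.1 CPM against 21.3, 18.3 and 20.9 CPM (-0.13 ± 0.074), all mutant libraries below.

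Psmd5, which binds base ATPases during assembly, varied most within the control group. It stood at 35.8, 55.8 and 33.5 CPM in the controls and at 51.9, 50 and 56 CPM in mutant libraries (0.34 ± 0.215), and control library 2 sat among the mutants. With each library left out in turn its log2 fold change ran from 0.20, without control library 3, to 0.61, without control library 2. In the latter fit Psmd5 was called higher (adjusted p = 0.00341, edgeR quasi-likelihood test), the 1 of 14 alternatives that called it. Among the remaining activators and the inhibitor, Psme3, which encodes a nuclear cap, measured 104, 97.2 and 102 CPM against 104, 105 and 105 CPM (0.05 ± 0.037), with the mutant libraries just above the controls. Psmf1, an inhibitor that binds the core, measured 46.8, 45.3 and 45.2 CPM against 42.4, 43.4 and 45 CPM (-0.07 ± 0.045), with every mutant library below the controls by a narrow margin.

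The 5 immune subunits, kept apart, had no called gene and a median log2 fold change of 0.10. At an unadjusted p under 0.05, 0 were higher and 1 lower in the edgeR quasi-likelihood test, and DESeq2 and limma-voom called 0. Psmb8 measured 16.3, 18.1 and 20.2 CPM in the controls and 19, 20.1 and 19.7 CPM in mutant libraries (0.11 ± 0.088). Psmb9 measured 9.88, 8.62 and 6.17 CPM against 8.45, 8.47 and 9.58 CPM (0.10 ± 0.171), and its control libraries held both the highest and the lowest value. In neither gene did the groups separate.

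Psmb10 was the immune gene with a fold change below 0. It measured 29.1, 29.7 and 30.3 CPM in the controls and 23.2, 27.2 and 25.8 CPM in mutant libraries, with every mutant library below every control (-0.23 ± 0.070), and was not called. Psme1 stood at 46.3, 49.1 and 53 CPM against 51.8, 60.8 and 48.5 CPM (0.12 ± 0.092). Psme2 stood at 42.4, 38.4 and 44.8 CPM against 38.1, 42.9 and 48 CPM (0.04 ± 0.094). Both overlapped, and 18.4% of the 100-base stretches of Psme2 also occurred in its near copy Psme2b, which lies outside the naming rule.

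Immune catalytic transcripts were scarcer per length than the standard ones they replace. Per kb of exon, the level of Psmb8 was 0.0734 ± 0.00521 of that of Psmb5 in control and 0.0781 ± 0.00312 in mutant libraries (SD, n = 3). Psmb9 stood at 0.031 ± 0.00873 and 0.0316 ± 0.00269 of Psmb6. Psmb10 was the most abundant of the 3 beside its counterpart Psmb7, at 0.362, 0.362 and 0.349 in control and 0.256, 0.306 and 0.292 in mutant libraries. These ratios depend on the length used: with the longest coding transcript in place of all exons, the control ratios were 0.153, 0.0358 and 0.158 in the same order, so that Psmb8 and Psmb10 came close. The microglial marker sum, lower in mutant libraries as given above, moved in the same direction as Psmb10, and its part in Psmb10's values was not tested.

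Genes around the immune subunits were read from lists chosen with results of these data known. All tested genes were called higher in 7.56% and lower in 6.83%, and those of at least 50 CPM in 17.4% and 12.7%. Of 10 genes of class I peptide supply, 0 were called higher and 1 lower, H2-D1, a class I heavy chain, at 782, 767 and 782 CPM against 671, 672 and 672 CPM (-0.21 ± 0.027, adjusted p = 0.00197, edgeR quasi-likelihood test). At an unadjusted p under 0.05, 2 were higher and 2 lower, DESeq2 called 0 and 2, and limma-voom 0 and 1. Heavy-chain genes resemble each other closely, so counts may be split between them. Of 11 genes of interferon signalling, receptors and transcription factors among them, 1 was called higher. It was Irf7, an interferon regulatory factor, at 9.05, 10.7 and 10.8 CPM against 17.3, 13.5 and 15.5 CPM (0.60 ± 0.117, adjusted p = 0.0127, edgeR quasi-likelihood test). DESeq2 called 2 of the 11 higher and 1 lower, and limma-voom 1 and 0. Irf1, a factor that acts on promoters of the immune subunits, measured 26.6, 44.1 and 22.4 CPM against 19.4, 17.5 and 15.5 CPM. It was not called, although its groups did not overlap. Markers of lymphocytes, cells rich in these subunits, summed to 17.8 to 19.9 CPM in the controls and 19.5 to 23.9 CPM in mutant libraries over 12 genes, 4 of them under 1 CPM in every library. Of the 11 tested, 0 were called, with a median log2 fold change of 0.59. At an unadjusted p under 0.05 (edgeR quasi-likelihood test), 5 of them were higher and 0 lower. DESeq2 called 3 and 0, and limma-voom 0 and 0. The part of lymphocytes in the immune subunits' values was not tested.

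**Figure D3:**
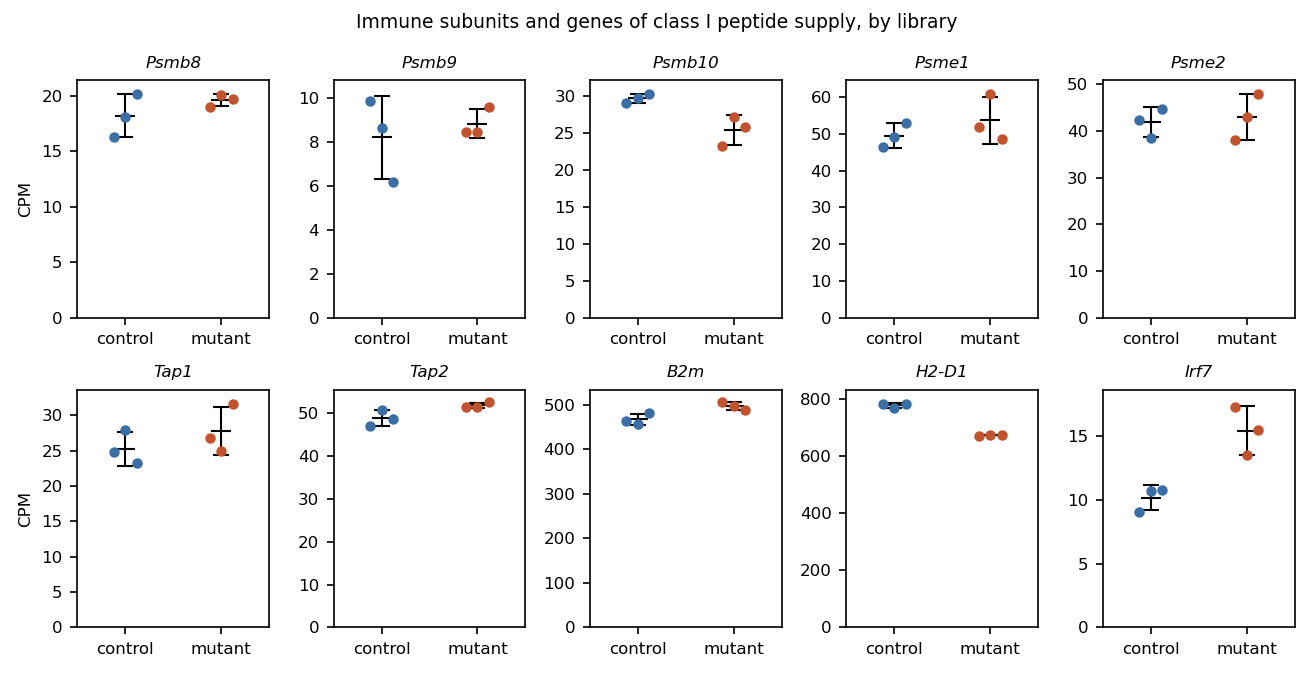
Expression of the 5 immune subunits (top) and of 5 genes of peptide supply and interferon response (bottom) in each library (y axis, CPM from 0), with group mean and SD as bars. Of the top panels, only Psmb10 shows groups that do not overlap, with the mutant libraries at 23.2 to 27.2 CPM below the controls at 29.1 to 30.3 CPM.

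Levels per length differed far more between subunits than between groups. In control libraries, per kb of exon, the level ran from 1.77 CPM per kb for Psma8 to 152 CPM per kb for Psma6, with a median of 33.4 over the 47 genes. Among the 14 genes of the standard core, whose proteins are present in equal numbers in each particle, it ran from 21.6 for Psma3 to 152 for Psma6, a 7.06-fold range. Of the 100-base stretches of Psma3, 13.4% also occurred in Gm13835, and 23.7% of those of Psma5 occurred in other genes. The counts of both may thus be split. After Psma6 came Psmb4 at 91.8, the ATPase Psmc5 at 91 and Psmb2 at 83.9, while Psmb9 at 2.25 and Psma8 closed the order. Neighbours in this order often could not be separated: in 33 of 46 neighbouring pairs the ranges of the 3 control libraries overlapped, and within the core in 5 of 13. The order was nearly the same in mutant libraries, with a correlation of 0.995 across the 47 log2 levels, which are genes of the same libraries and not independent replicates.

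The assembly chaperones with a Psm name stood low among these levels. The 7 chaperones of base and core ran from 4.79 CPM per kb for Psmd9 to 15.5 for Psmg4, with a median of 11.9, while the lid genes had a median of 31.5, the ATPases of 71 and the catalytic genes of 73.2. Psmb7, at 48.8, was below Psmb5 at 73.2 and Psmb6 at 73.3 on this scale, and the latter pair overlapped. Taking the longest coding transcript as the length raised the median over the 47 genes to 56.7 CPM per kb, and it put Psmb7 at 144, above Psmb5 at 73.2 and below Psmb6 at 172, so the order holds only for a stated length.

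**Figure D4:**
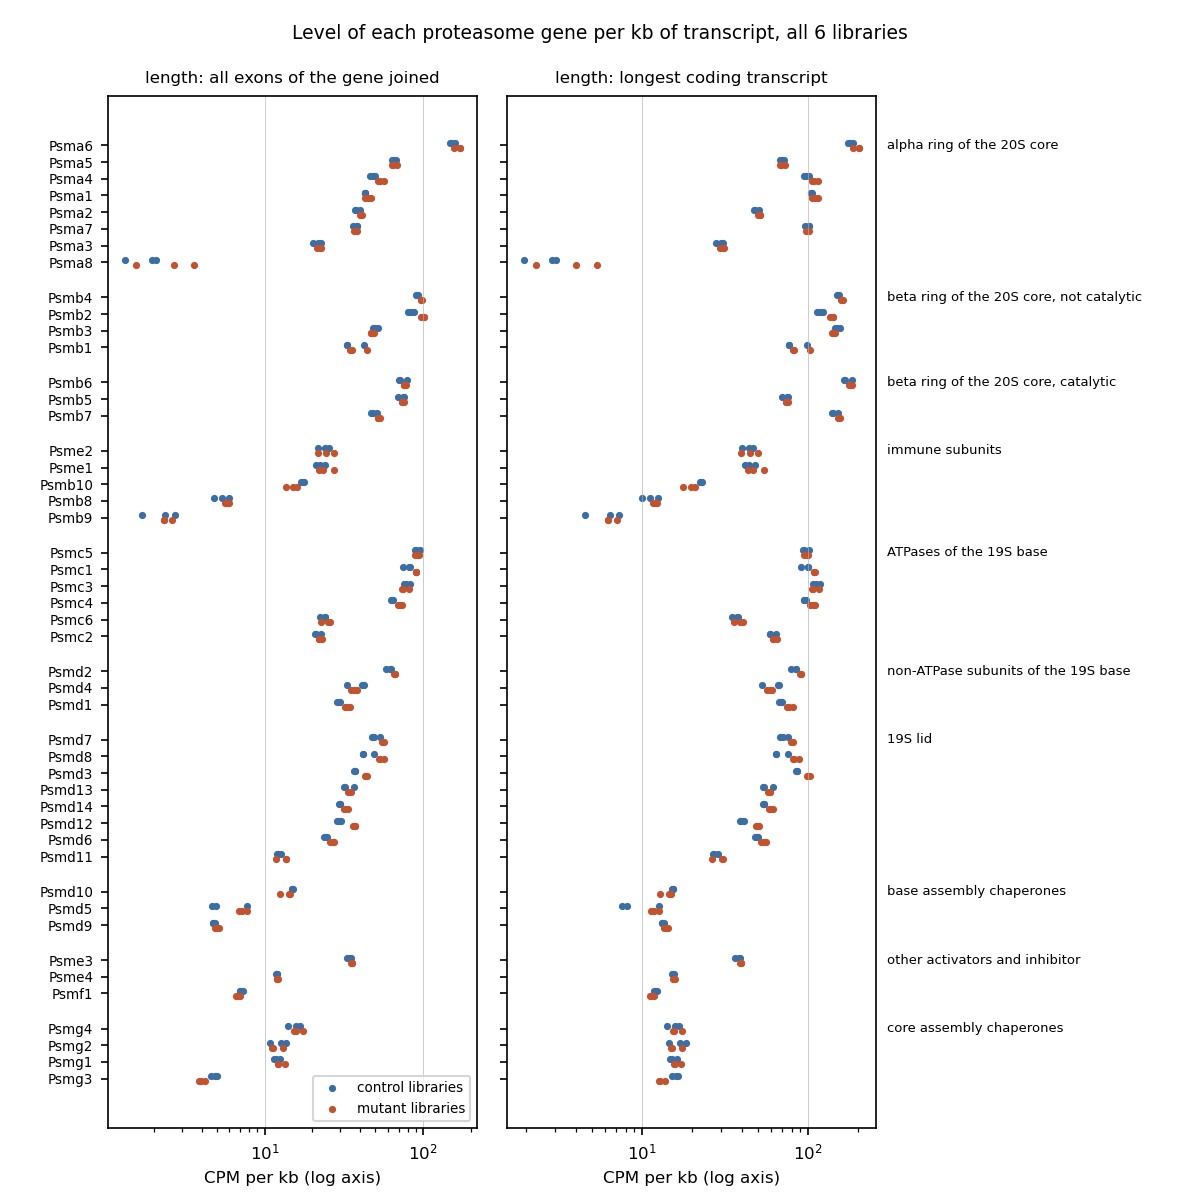
Level of each tested proteasome gene per kb (x axis, CPM per kb on a log scale) in the 3 control and 3 mutant libraries, ordered by role, with all exons joined as the length (left) or the longest coding transcript (right). Assembly chaperones lie between 4.79 and 15.5 CPM per kb in control means on the left, below nearly all subunits of the core and the 19S particle, and the genes differ more from each other than the groups do.

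Proteasome genes were not spread evenly over the libraries that held a group's highest and lowest values. Control library 3 held the highest control value of 29 of the 47 genes, or 61.7%, whereas it held the highest of 34.5% of all tested genes. Control library 2 held the lowest of 21, or 44.7%, beside 32.8% of all genes. In the mutant group the highest value fell to the 3 libraries in 15, 16 and 16 genes, while mutant library 1 held the lowest of 21, or 44.7%, beside 33% of all genes. The median coefficient of variation was 4.19% in control and 3.09% in mutant libraries over the 47 genes. It was 3.83% and 2.77% over the 33 proteasome genes of at least 50 CPM in the controls. Over all genes averaging at least 50 CPM across both groups it was 3.34% and 3.67%. Genes of one complex share libraries and are not independent, so these counts are descriptions. The shares of all genes are not matched by level. In the CCT chaperonin, a folding ring taken up below, control library 3 was also the highest control for Tcp1, Cct2, Cct4, Cct5, Cct7 and Cct8. It was not for Cct3 and Cct6a. Nothing particular to the proteasome is read from these counts. The largest spreads were those of Psmd5 (29.4%), Psmb9 (23%) and Psma8 (22.7%) in control, and of Psma8 (39.4%) in mutant libraries.

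The called genes were scattered over the genome. The 48 genes lay on 16 chromosomes, 8 of them on chromosome 11, which held the called genes Psmd3 and Psmd12, while Psmb2, Psmc1 and Psmd1 lay on chromosomes 4, 12 and 1, and Psmc4 and Psmd8 on chromosome 7 (GENCODE mouse release 21, GRCm38). Of 32 pairs of neighbouring proteasome genes, 3 were nearer than 100 kb. These were Psmb5 and Psmb11, with 3.41 kb between them, Psme1 and Psme2, with 5.91 kb, and Psmb9 and Psmb8, with 9.96 kb. In the latter gap lies Tap1, which carries peptides into the endoplasmic reticulum and overlaps Psmb9 on the opposite strand. Tap1 measured 24.8, 27.9 and 23.2 CPM against 26.8, 25 and 31.6 CPM (0.14 ± 0.106).

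The genes that work with the proteasome but carry other names were taken from 6 lists of the pathway, with 48 genes tested and 1 listed gene, Paaf1, not matched. In them 10 were called higher and 2 lower (edgeR quasi-likelihood test, adjusted over all genes tested), with a median log2 fold change of 0.05, beside 7.56% and 6.83% of all genes called. DESeq2 called 11 and 2, and limma-voom 10 and 2. Of the 38 genes of at least 50 CPM, 9 were called higher, or 23.7%, and 0 lower, beside 17.4% and 12.7% of all genes at that level, and nothing particular to the pathway is read from this. The 10 became 4 without control replicate 1 and 6 without mutant replicate 1 or mutant replicate 2. Among the 5 tested subunits and assembly factors outside the Psm names, 0 were called, with 1 higher at an unadjusted p under 0.05, 1 by DESeq2 and 0 by limma-voom. Pomp, which matures the core, measured 97.6, 99.3 and 107 CPM against 104, 103 and 112 CPM (0.07 ± 0.052). Adrm1, a ubiquitin receptor of the base, measured 91.7, 80.1 and 89.8 CPM against 87.1, 89.9 and 90.6 CPM (0.03 ± 0.056). Both overlapped between groups.

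Among the deubiquitinases, ligases and activators bound to the proteasome, 3 of 8 rose and none fell. At such counts per list, the shares of all genes just given are the background for this list and the next ones. Usp14, a deubiquitinase of the base, measured 66.8, 69.6 and 68.7 CPM in the controls and 79.6, 78 and 80.4 CPM in mutant libraries (0.22 ± 0.036, adjusted p = 0.00703, edgeR quasi-likelihood test). Uchl5, the other base-bound deubiquitinase, measured 23.3, 22.1 and 22.1 CPM against 25.1, 28.5 and 27.1 CPM (0.26 ± 0.067, adjusted p = 0.0416). Ube3c, a ligase that extends chains on stalled substrates, reached 120 ± 3.35 CPM in the controls and 132 ± 1.58 CPM in mutant libraries (SD, n = 3; 0.14 ± 0.035, adjusted p = 0.0374). The groups were apart in each of the 3. Usp14 kept its call with each library left out, whereas Ube3c lost it without any one library (adjusted p from 0.056 to 0.101) and Uchl5 without any one but mutant replicate 1 (0.0774 to 0.123).

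Shuttle factors bring ubiquitinated proteins to the proteasome, and 2 of 8 rose. Rad23b measured 197, 205 and 200 CPM against 240, 228 and 243 CPM (0.24 ± 0.037, adjusted p = 0.00479, edgeR quasi-likelihood test). Ddi2, which is also the protease that activates the Nfe2l1 protein, measured 127, 139 and 124 CPM against 147, 149 and 162 CPM (0.23 ± 0.058, adjusted p = 0.0353), and it overlaps Rsc1a1 on the same strand. Ddi2 lost its call without any one library but control replicate 2 (adjusted p from 0.0543 to 0.116). Of the p97 segregase, which pulls ubiquitinated proteins out of complexes and membranes, 2 of 9 genes rose. Vcp, p97 itself, measured 559, 562 and 576 CPM against 621, 638 and 632 CPM (0.16 ± 0.029, adjusted p = 0.0111), and its cofactor Nploc4 117 ± 2.29 against 132 ± 3 CPM (SD, n = 3; 0.18 ± 0.035, adjusted p = 0.0146). Without control replicate 1, Vcp had an adjusted p of 0.0563 and Nploc4 of 0.0581, and without mutant replicate 1 Nploc4 had 0.0578. Of the ubiquitin genes and the enzymes that activate ubiquitin, 1 of 6 rose, Uba1, the main activating enzyme, at 504, 511 and 521 CPM against 568, 565 and 573 CPM (0.15 ± 0.029, adjusted p = 0.0112; 0.0575 without control replicate 1).

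Genes that control proteasome transcription went both ways, with 2 of 12 higher and 2 lower. Nfe2l1 measured 56.9, 56.1 and 46.5 CPM in the controls and 69.5, 68.5 and 64.6 CPM in mutant libraries (0.34 ± 0.080, adjusted p = 0.0277, edgeR quasi-likelihood test). Control library 3 was the low one, and the groups were apart. Without mutant replicate 1 its adjusted p was 0.0917 and without mutant replicate 2 it was 0.0838. Maff, a small Maf protein that pairs with such factors at their sites, measured 52.5, 55.1 and 60 CPM against 81.8, 81.5 and 79.1 CPM (0.53 ± 0.054, adjusted p = 0.000611), the largest rise of the 6 lists.

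The genes that fell in this list were Mafk and Ngly1. Mafk, another small Maf protein, measured 48.8, 47.4 and 43.1 CPM against 34.8, 35.8 and 34.6 CPM (-0.40 ± 0.058, adjusted p = 0.00327, edgeR quasi-likelihood test). Ngly1, the enzyme that strips sugars from the Nfe2l1 protein on its way to activation, measured 37.5, 39.3 and 37.8 CPM against 33.1, 31.5 and 33 CPM (-0.23 ± 0.049, adjusted p = 0.0193). Ngly1 lost its call without any one control library or mutant replicate 2 (adjusted p from 0.0507 to 0.0846). Maff and Mafk thus moved in opposite directions, as did Ddi2 and Ngly1, which act in sequence on one protein. Nfe2l2, the stress-activated relative of Nfe2l1, measured 120, 122 and 125 CPM against 132, 126 and 134 CPM and was not called (0.09 ± 0.037, adjusted p = 0.15).

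**Figure D5:**
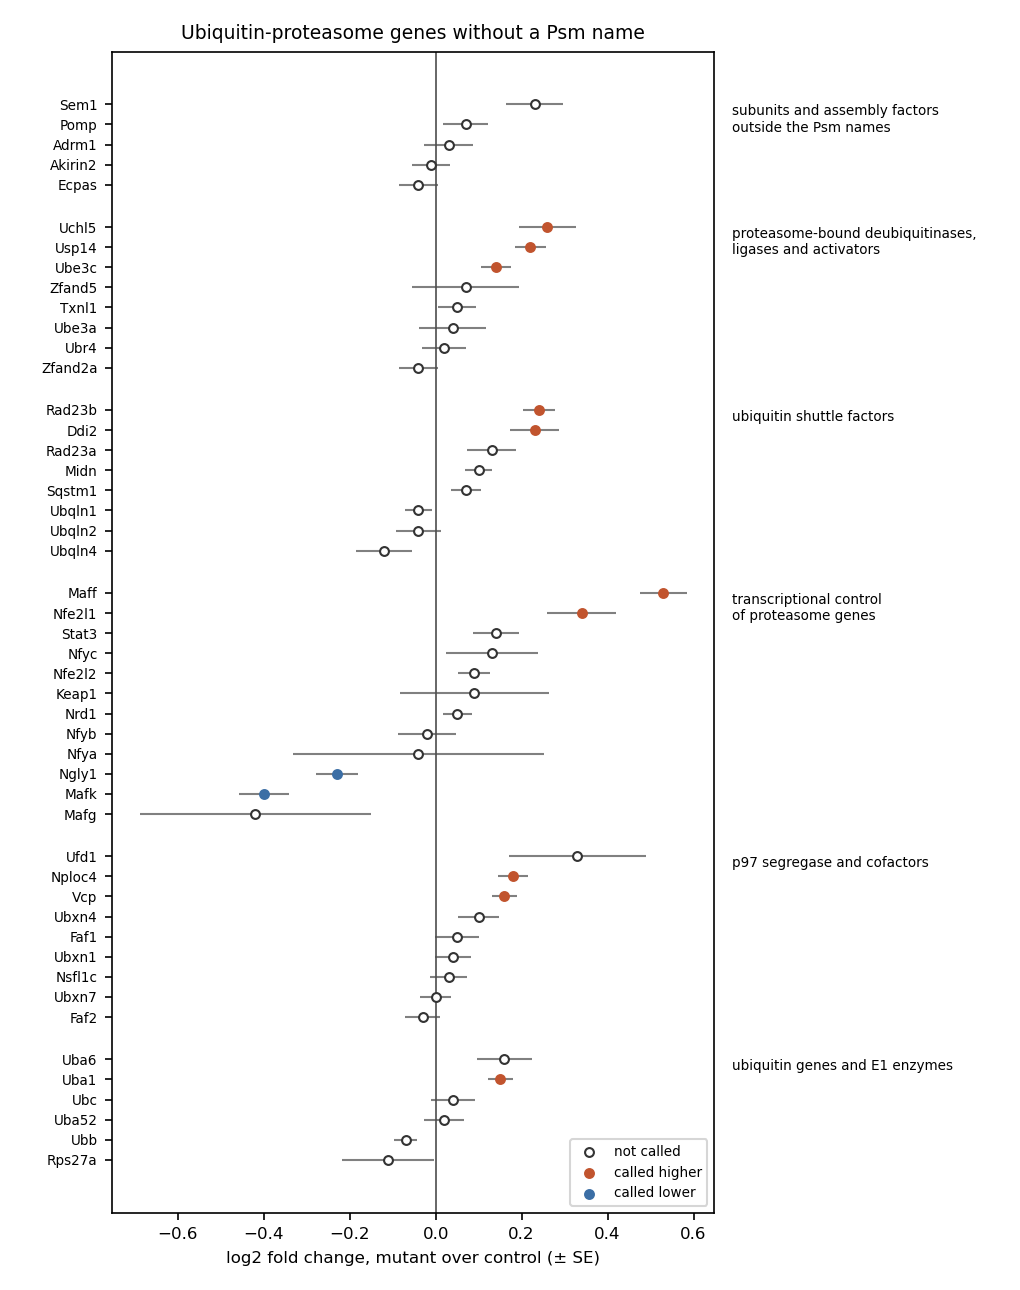
Log2 fold change, mutant over control libraries (x axis, points with bars of 1 SE), of the 48 tested genes of the ubiquitin-proteasome pathway without a Psm name, by list. The 10 genes called higher are spread over 5 of the lists, and both genes called lower, Mafk and Ngly1, are among the transcriptional controls.

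Complexes and stress genes related to the proteasome were compared as further lists, beside 7.56% of all tested genes called higher and 6.83% lower, or 17.4% and 12.7% of those of at least 50 CPM. The COP9 signalosome, built like the lid, had 1 of 10 genes called, Cops4, which rose from 84.3 to 97.1 CPM (0.20 ± 0.034, adjusted p = 0.00636, edgeR quasi-likelihood test). The CCT chaperonin, a folding ring of no kinship to the proteasome, had 2 of 8, Cct6a at 0.21 ± 0.044 (adjusted p = 0.0169) and Cct2 at 0.13 ± 0.030 (adjusted p = 0.0264), with a median of 0.10. Its median was thus no smaller than the 0.07 of the proteasome genes. Of 12 targets of oxidative and proteotoxic stress, 1 rose, Txnrd1 (0.17 ± 0.036, adjusted p = 0.0167), and 3 fell. The near-identical heat shock genes Hspa1a and Hspa1b fell from 136 to 63.5 and from 174 to 78.1 CPM (-1.10 ± 0.062 and -1.15 ± 0.066, adjusted p = 4.24e-05 and 4.87e-05), and reads may be split between them. Nqo1, a classic target of Nfe2l2, was the third, at -0.53 ± 0.112 (adjusted p = 0.0196). Of the 13 listed targets, Ddit3 was not tested. The entry read for it held 0.0122 to 0.0245 CPM and overlaps another entry of the same symbol on its strand, which was not read. Of 16 autophagy genes, 2 rose and 4 fell, among them Gabarapl1 (0.42 ± 0.044, adjusted p = 0.000651), Map1lc3a (-0.33 ± 0.043, adjusted p = 0.0022) and Atg12 (-0.16 ± 0.036, adjusted p = 0.0272).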

How the data were processed

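RNA-seq of 3 control and 3 mutant libraries was deposited as a matrix of estimated counts per gene, which the authors' pipeline made: the submitters' processing notes name cutadapt 1.10, FastQC 0.10.1, HISAT2, StringTie 1.3.4, edgeR and GRCm39. A read pair adds about 4 to these estimated counts, since 1118 to 1190 genes per library hold exactly 4 and 316 to 365 hold 3. Counts of valid reads per library come from a deposited quality table. Symbols came from GENCODE mouse release 21 (GRCm38), which holds all 55450 gene IDs, so the files' build and the build in the notes are not settled.

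Estimated counts were rounded and tested in edgeR 4.0.16 (R 4.3.3) with filterByExpr, TMM scaling, glmQLFit (robust) and glmQLFTest on group alone, with Benjamini-Hochberg adjustment over 19549 genes. A gene is called at an adjusted p under 0.05. CPM are TMM-scaled, and levels per kb divide CPM by the joined exons of a gene. The code was tested on simulated data. The 14 alternatives included DESeq2 1.42.0 and limma-voom (limma 3.58.1), other scalings and filters, counts divided by 4, a replicate block, and each library left out.

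The proteasome genes and all gene lists were chosen with earlier results of these data known. Values are given for the standard catalytic and the immune genes, for the largest and smallest fold change of each role class, for the 3 genes on either side of the threshold, for genes below the filter and, among other genes, for Nfe2l1, Nfe2l2, Pomp, Adrm1, Usp14, Vcp, each called gene of the first 6 lists and at most 3 of each further list. Psmc4 and Psmd3 were named to complete the called genes, and Psmb1, Psmd2, Irf1, Tap1, Acta2, Abcc9 and further genes in the accounts of levels and of spread after their values were seen. Replicate numbers did not pair the libraries.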

Additional observations from a re-analysis of the deposited data

How the results depend on the processing

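The count of 7 proteasome genes called higher became 11 with RLE size factors and with DESeq2, and 12 with a stricter low-count filter and with counts divided by 4. All genes called higher were 1477 of 19549 in the main fit, 1522 with RLE size factors and 1839 with DESeq2. They were 1589 of 14756 with the stricter filter and 1630 of 16488 with counts divided by 4. The count of proteasome genes ranged from 3 to 6 when each library was left out in turn: 4 without control replicate 1, 4 without control replicate 2 and 3 without mutant replicate 2. In those fits 1100 to 1270 of all genes were called higher. Psmd5, Psmd7 and Psma6, outside the 7, were called higher without control replicate 2, control replicate 3 and mutant replicate 3. Psmb2, Psmd12 and Psmd3 were called under all 14 alternatives, Psmd1 under 11, Psmc4 under 10, Psmd8 under 8 and Psmc1 under 7. All 14 reuse the values on which the genes were chosen, so these counts describe the processing alone. The count of genes called lower became 1, Psmg3, with the stricter filter and with DESeq2. The median level of 33.4 CPM per kb became 56.7 with the longest coding transcript as the length. The median log2 fold change of the proteasome genes kept its sign throughout, and the median of all tested genes lay between -0.02 and 0.00 under all 14.

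Of the other pathway genes, the 10 called higher ranged from 4 to 8 with a library left out (4 without control replicate 1, 6 without mutant replicate 1 or mutant replicate 2), and the 2 called lower ranged from 1 to 2. Maff, Mafk, Rad23b and Usp14 were called under all 14 alternatives, Vcp and Uba1 under 13, Nfe2l1 under 12, Nploc4 under 11, Ngly1 under 9, Ddi2 and Uchl5 under 8 and Ube3c under 7. Adrm1, not called, ranged from -0.02 (without control replicate 2) to 0.08 with a library left out. Fits without a library have fewer samples and call fewer genes overall; other causes were not tested.

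Libraries of the same replicate number did not deviate together (correlations -0.0233, 0.00969 and 0.0233), so the numbers do not pair the libraries. With the replicate number as a block, 4 proteasome genes were called higher, and 7 pathway genes higher and 1 lower, from fewer residual degrees of freedom. Of all 19549 tested genes, 1106 were called higher and 953 lower in that fit.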
